A study of Homo sapiens with 4 samples.

Results

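The genes described here are 34 genes of glycolysis, of the entry and exit of its fuel and products, and of the response to low oxygen, chosen by name as a pathway list from 14355 gene names in the ribosome-profiling tables of Hermes 4B cells. Hermes 4B is an immortalised line of human skin melanocytes, labelled as wild type in genotype. One set of cells received siRNA that targets CDH3-AS1, an antisense noncoding RNA of the P-cadherin gene CDH3 (siCDH3AS1, n = 2 libraries), and the other set a control siRNA (siCtrl, n = 2). Each siRNA had 1 library in batch 2 and 1 in batch 1, and replicate numbers are the batch numbers. All cells were grown in RPMI1640 medium with 10% FBS, SCF at 10 ng/mL, cholera toxin at 200 pM, endothelin-1 at 10 nM and the phorbol ester TPA at 200 nM, received 25 to 50 nM siRNA and were washed with 100 µg/mL cycloheximide, which holds ribosomes on the RNA. The model is 1 cell line, and separate cultures are not named in the labels, so the p-values describe only how these libraries vary, which may be technical. The level of CDH3-AS1 itself was not analysed here, so the knockdown was not checked.

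Glycolysis splits glucose into pyruvate in the cytosol and yields ATP without oxygen. Pyruvate then enters mitochondria or is reduced to lactate, which leaves the cell through monocarboxylate transporters. When oxygen is plentiful, prolyl hydroxylases of the EGLN family mark the transcription factor subunit HIF-1α for destruction. When oxygen is scarce HIF-1α persists, pairs with ARNT and drives genes of glucose uptake, glycolysis, mitophagy, collagen hydroxylation and blood vessel growth. Melanocytes live in skin that is low in oxygen, and the factor is known there for its links to pigment cell growth and melanoma.

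Of the 34 genes, 32 were listed in the tables and 28 passed the filter on low counts. SLC16A1, a lactate transporter, and CA12, a membrane carbonic anhydrase, were not analysed here. The genes that did not pass were PGAM1, LDHA, EGLN3 and ADM. PGAM1, the phosphoglycerate mutase of most tissues, had 0 and 0 coding-sequence reads in siCDH3AS1 libraries 1 and 2, against 0 and 2 in siCtrl libraries 1 and 2. LDHA, the lactate dehydrogenase subunit that favours lactate formation, had 1 and 0 reads in siCDH3AS1 libraries, against 0 and 1 in siCtrl libraries, on the 1 transcript listed. Both enzymes belong to the core of the pathway, and both have many near-identical processed copies in the genome; how reads that fit several places were treated is not given in the sources used here, so these counts are uncertain. EGLN3, an oxygen-sensing hydroxylase, had 14 and 2 reads against 6 and 3, and ADM, the peptide adrenomedullin, had 0 and 0 against 1 and 0, in siCDH3AS1 and siCtrl libraries.

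The libraries held 6759850 and 2858835 reads for siCDH3AS1 and 2034854 and 5994485 reads for siCtrl, with 90.5% to 93.9% of reads in coding sequence. A gene at 3 coding-sequence reads, taken as the detection limit, stood at 0.473 to 1.63 CPM, that is, relative to all coding-sequence reads of its library. All 12 melanocyte markers had reads in every library, with summed levels of 22000 and 32120 CPM in siCDH3AS1 libraries and 24200 and 40880 CPM in siCtrl libraries. The siCtrl library of batch 1 stood apart. Its skeletal muscle markers summed to 4848 CPM, with reads for 24 of 25 listed markers, against 40.6 and 11.1 CPM in siCDH3AS1 libraries 1 and 2 and 14.8 CPM in siCtrl library 2. TTN (titin) reached 1783 CPM, ACTA1 (skeletal actin) 1008 CPM and CKM (muscle creatine kinase) 237 CPM there. The muscle glycogen phosphorylase PYGM had 102 CPM and the muscle enolase ENO3 35.3 CPM in that library, and red blood cell markers had 74 reads, against 0 in each of the other libraries. Muscle shares several enzymes with the list, above all ALDOA and PFKM, so values are given below with and without that library; the part of muscle RNA in them was not tested.

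HIF-1 binds a short DNA core, A or G followed by CGTG. The 250 bases before the start of each gene were searched for ACGTG and GCGTG on both strands (read as CACGT and CACGC on the gene's own strand; the palindrome CACGTG holds both orientations). RefSeq promoters on GRCh38.p14 matched 29 of the 34 genes, and 17 of them held the core (58.6%), close to the 58.4% of 8523 promoters of genes tested and above the 43.1% of all 27305 promoters. The core is thus frequent in promoters of genes with footprints in general. These sets also differed in base content, with a median share of G and C of 69.6% in the listed genes. It was 65.2% in genes tested and 58.0% in all promoters, and its part in the shares was not tested. The following 30-base windows are those of genes whose footprints differed between the batches and whose promoter held the core, with the core in capitals and each sequence on the gene's own strand.
ENO2: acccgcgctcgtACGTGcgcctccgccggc
PDK3: cgcgcgccgcgtACGTGcagcaaccgactc
HIF1A: tggctgagagcgGCGTGggctggggtgggg
P4HA1: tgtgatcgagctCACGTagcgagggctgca
ALDOA: ccttcccctccaCACGTcaacgattctatt
They lie on the plus strand at chr12:6914450-6914479 for ENO2, chrX:24465213-24465242 for PDK3, chr14:61695297-61695326 for HIF1A and chr16:30064089-30064118 for ALDOA, and on the minus strand at chr10:73096935-73096964 for P4HA1. The core lay 118, 61, 204, 178 and 86 bases before the annotated start of ENO2, PDK3, HIF1A, ALDOA and P4HA1. The window of SLC16A3 held no such letters. NDRG1 has no sequence here. A match is only a match of letters.

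Among the tested genes, footprint density was dominated by a few enzymes. PGAM1 and LDHA, whose counts are uncertain, are not ranked, and how near-identical copies of the other genes were treated is not given either. Levels between genes are given as RPKM, coding-sequence reads scaled to the length of the leading transcript's coding sequence in kilobases and to the library total, averaged over the 4 libraries. GAPDH, the dehydrogenase of the payoff phase, stood at 3099 ± 610 (SD, n = 4), ALDOA, the aldolase that splits the sugar, at 2791 ± 743, PKM, pyruvate kinase, at 1964 ± 253, and ENO1, enolase 1, at 1119 ± 114. GAPDH and ALDOA did not differ beyond their spread. PGK1 (phosphoglycerate kinase) at 455 ± 91.8 and SLC16A3 (the lactate exporter MCT4) at 407 ± 125 RPKM followed, and these also overlapped in spread. The mitophagy receptor BNIP3L at 256, PFKP at 229, TPI1 at 223, ENO2 at 191, HIF1A at 184, GPI at 163 and SLC2A1 at 161 RPKM formed a row of close neighbours. HK1 at 131, BNIP3 at 118, P4HA1 at 101, HK2 at 99.6, PFKL at 95.3, NDRG1 at 89.2, LDHB at 82.7 and PFKM at 68.1 RPKM came next. The lowest tested genes were P4HA2 at 43.6, EGLN1 at 42.5, ALDOC at 33.3, PDK1 at 26.8, SLC2A3 at 23.0, VEGFA at 17.2 and PDK3 at 14.4 RPKM.

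Several steps of the pathway are served by more than 1 gene, and their order was clear for most. PFKP, the platelet form of phosphofructokinase, stood above PFKL (liver form) and PFKM (muscle form). ALDOA was the leading aldolase, far above the brain form ALDOC, and ENO1 was above the neuronal enolase ENO2. The hexokinases HK1 and HK2, at 131 ± 24.3 and 99.6 ± 25.2 RPKM (SD, n = 4), overlapped in spread over the libraries. HK1 was the higher in every library, at 134 against 113 and 106 against 72.0 RPKM in siCDH3AS1 libraries 1 and 2. In siCtrl libraries 1 and 2 it had 163 against 128 and 120 against 86.1 RPKM. SLC2A1 (the glucose transporter GLUT1), at 161 ± 47.3 RPKM, stood above SLC2A3 (GLUT3), at 23.0 ± 7.33 RPKM. The 32 listed genes together took 1.78% and 1.49% of coding-sequence reads in siCDH3AS1 libraries 1 and 2, and 1.95% and 1.58% in siCtrl libraries 1 and 2, so that batch 1 was the higher within each siRNA.

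**Figure D1:**
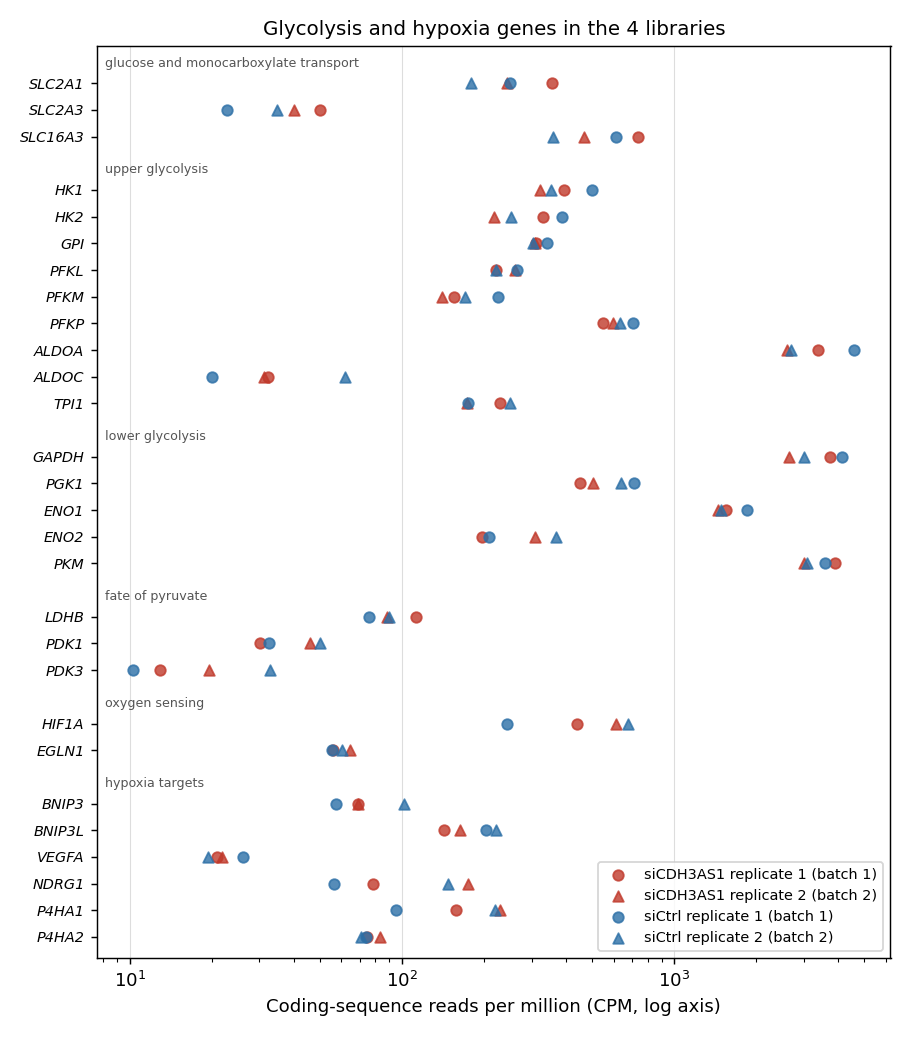
Coding-sequence CPM (log axis) of the 28 tested genes, ordered by role, with 1 point for each of the 4 libraries (siCDH3AS1 red, siCtrl blue; circles batch 1, triangles batch 2). For most genes the colours are mixed, while for NDRG1, HIF1A and P4HA1 both triangles lie to the right of both circles.

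CDH3-AS1 knockdown moved none of the 28 tested genes past the threshold. At an adjusted p of 0.05 in edgeR's quasi-likelihood test without a batch term, 0 of 28 genes were called, against 0 of 10469 genes tested (0.0%). At an unadjusted p under 0.05 the count was 0 of 28, against 225 of all genes (2.15%). DESeq2 also called 0 of the 28. With the batch as a replicate block, 170 genes of all (1.62%) passed, 0.927% higher and 0.697% lower, and again 0 of 28, 0 in each direction; at an unadjusted p under 0.05 the block gave 3 of 28, SLC2A1, SLC2A3 and PGK1 (10.7%), against 9.79% of all genes. The median log2 difference of the 28 genes, siCDH3AS1 over siCtrl, was −0.07, and that of all genes tested was −0.03. The median of the 28 became 0.080 without siCtrl library 1 and 0.099 without siCtrl library 2. Fits of the siRNA effect with 1 library left out had no batch term. They left 1 siRNA with a single batch, so the library and the batch cannot be told apart in them. An exact two-sided permutation test on any 1 gene has 0.333 as its smallest possible p in this design.

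The differences of all 3 tested sugar and lactate transporters lay above 0, as did those of 4897 of the 10469 genes tested. SLC2A1 had 356 and 243 CPM in siCDH3AS1 libraries 1 and 2, against 249 and 179 CPM in siCtrl libraries 1 and 2. Within each batch its siCDH3AS1 library was the higher, by 0.55 (log2) in batch 1 and 0.49 in batch 2, although the groups overlapped because both batch 2 libraries were lower. The log2 difference was 0.53 (SE 0.36), with an adjusted p of 1.00 in edgeR and of 0.42 with the block. SLC2A3 had 50.1 and 40.2 CPM in siCDH3AS1 libraries, against 22.8 and 34.7 CPM in siCtrl libraries. These groups did not overlap, and the difference was 0.67 (SE 0.38; edgeR adjusted p = 1.00, and 0.44 with the block). SLC16A3 had 736 and 468 CPM in siCDH3AS1 libraries, against 612 and 359 CPM in siCtrl libraries. Its groups overlapped, and its difference was 0.35, with an adjusted p of 1.00 in edgeR and of 0.65 with the block. No transporter passed, and the sizes moved when a library was left out. Within batch 1 and batch 2 SLC16A3 differed by 0.30 and 0.43, and SLC2A3 by 1.15 and 0.26. Without siCDH3AS1 library 1 the differences of SLC2A1 and SLC16A3 were 0.25 and 0.011. That of SLC16A3 was 0.040 without siCtrl library 2 and 0.81 without siCtrl library 1. For SLC2A3 the difference ranged from 0.45 to 1.04 with each library left out. SLC2A1 and SLC16A3 were lower in batch 2, and these fits had no batch term, so library and batch cannot be told apart.

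Of the 14 tested glycolysis enzymes, 12 had a log2 difference below 0 (85.7%, against 53.2% of all genes tested), with a median of −0.17, and 0 were called. Without the siCtrl library that held muscle reads, 6 of 14 lay below 0 (42.9%, against 48.6% of all genes) and the median was 0.080. Within siCtrl, 11 of the 14 were lower in batch 2 than in batch 1 (median −0.22), against 5124 of 10469 genes tested. The fit had no batch term and left siCtrl with batch 2 only, so that library and the batch cannot be told apart. Within batch 2, which does not use that library, 9 of 14 lay below 0, with a median of −0.11. Of all genes tested, 5475 of 10469 lay below 0 within batch 2, with a median of −0.03. PGK1, which makes the first ATP of the pathway, had 452 and 503 CPM in siCDH3AS1 libraries 1 and 2, against 714 and 640 CPM in siCtrl libraries 1 and 2. The groups did not overlap. The difference was −0.46 (SE 0.32), at −0.62 within batch 1 and −0.30 within batch 2, and had an adjusted p of 1.00 in edgeR and of 0.47 with the block. PFKM had 156 and 140 CPM in siCDH3AS1 libraries, against 225 and 171 CPM in siCtrl libraries. Its groups did not overlap either, but the value in the siCtrl library with muscle reads was the highest. The difference of −0.37 became −0.14 without that library, and was −0.49 within batch 1 and −0.23 within batch 2.

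The 3 genes with the highest RPKM differed little between the siRNAs. GAPDH had 3727 and 2651 CPM in siCDH3AS1 libraries 1 and 2, against 4152 and 2999 CPM in siCtrl libraries 1 and 2. PKM had 3885 and 3010 CPM in siCDH3AS1 libraries, against 3591 and 3077 CPM in siCtrl libraries. ALDOA had 3377 and 2601 CPM in siCDH3AS1 libraries, against 4594 and 2684 CPM in siCtrl libraries. For all 3 genes the groups overlapped. The log2 difference of GAPDH was −0.12 within batch 1 and −0.13 within batch 2. Without siCtrl library 1, which leaves siCtrl with batch 2 only, the difference of GAPDH was 0.15. The siCtrl library of batch 1 was far above the others for ALDOA, which is the main aldolase of muscle; the log2 difference was −0.24, and 0.22 without that library. Within batch 2 it was 0.01.

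The genes that decide what becomes of pyruvate gave no common direction. PDK3, a kinase that inhibits pyruvate dehydrogenase, had 12.9 and 19.5 CPM in siCDH3AS1 libraries 1 and 2, against 10.3 and 32.9 CPM in siCtrl libraries 1 and 2. It was higher in siCDH3AS1 within batch 1 by 0.34 (log2), while within batch 2 the log2 difference was −0.69. PDK1, a kinase of the same family, differed by −0.07 in each batch. LDHB, the lactate dehydrogenase subunit that favours pyruvate, had a difference of 0.61 in batch 1 and 0.03 in batch 2.

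HIF1A, which encodes HIF-1α, had 440 and 612 CPM in siCDH3AS1 libraries 1 and 2, against 244 and 677 CPM in siCtrl libraries 1 and 2. The siCtrl library of batch 1 was the lowest of the 4 and that of batch 2 the highest. The log2 difference was 0.23 in the fit, 0.88 within batch 1 and −0.09 within batch 2, with an adjusted p of 1.00 in edgeR. With the block the difference was 0.39 (edgeR adjusted p = 0.63). Without siCtrl library 1 it was −0.30. EGLN1, the hydroxylase that marks HIF-1α in normal oxygen, lay between 55.4 and 64.4 CPM in all 4 libraries.

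Among the hypoxia targets, BNIP3L had 143 and 164 CPM in siCDH3AS1 libraries 1 and 2, against 203 and 222 CPM in siCtrl libraries 1 and 2. Its groups did not overlap, and the log2 difference was −0.43 in the fit, −0.47 within batch 1 and −0.38 within batch 2 (edgeR adjusted p = 1.00, and 0.62 with the block). Its relative BNIP3 gave 0.29 within batch 1 and −0.51 within batch 2. P4HA2, a collagen prolyl hydroxylase, had 74.5 and 83.2 CPM in siCDH3AS1 libraries, against 73.8 and 70.7 CPM in siCtrl libraries. VEGFA, the vessel growth factor, lay between 19.4 and 26.1 CPM in all 4 libraries.

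Counts of direction followed those of all genes. The siCDH3AS1 library was the higher in both batches for 9 of 28 genes (32.1%), against 26.5% of all genes tested, and the lower in both for 9 of 28 (32.1%), against 27.8%. The first set held all 3 tested transporters with PKM, LDHB, EGLN1, NDRG1, P4HA1 and P4HA2, and the second held HK1, HK2, PFKM, PFKP, GAPDH, PGK1, ENO2, PDK1 and BNIP3L. Both siCDH3AS1 libraries lay above both siCtrl libraries for SLC2A3 and P4HA2 (7.14%, against 11.2% of all genes), and below them for PFKM, PFKP, PGK1 and BNIP3L (14.3%, against 16.1%). No gene of the list differed by at least 0.5 (log2) in the same direction in both batches, against 9.04% of all genes.

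**Figure D2:**
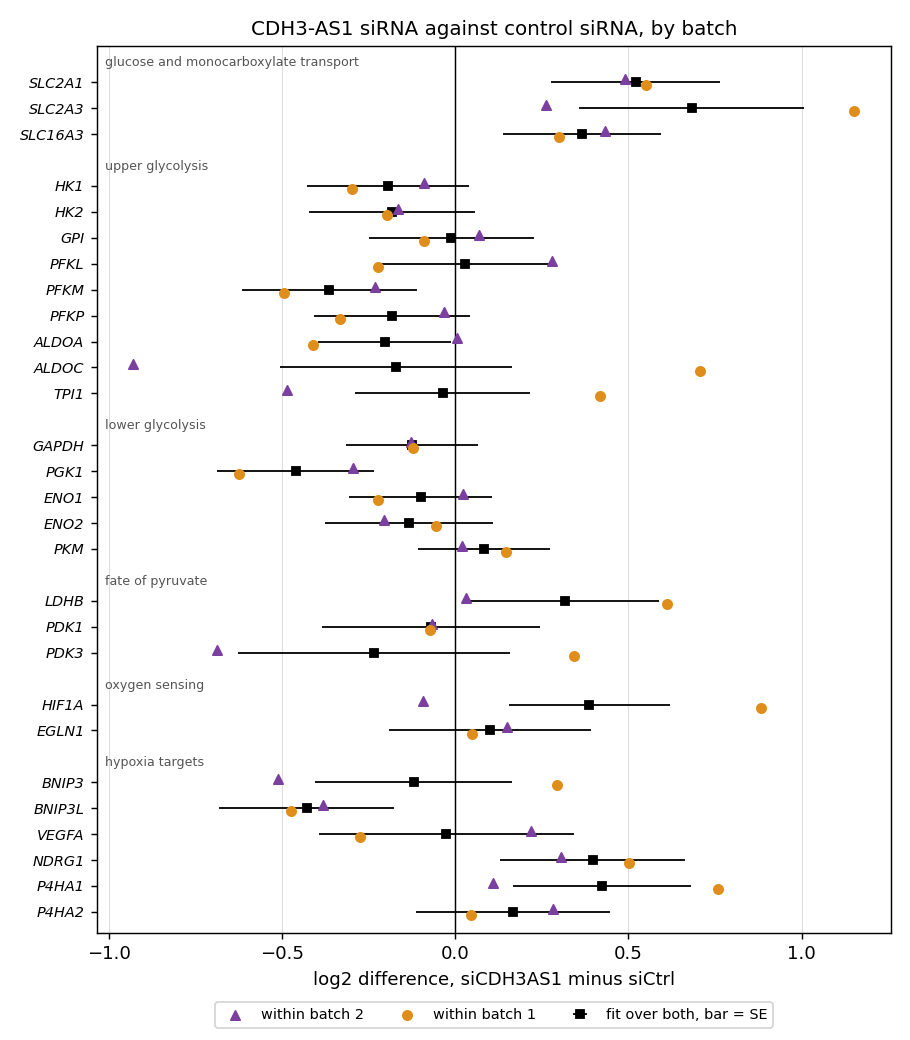
Log2 difference between siCDH3AS1 and siCtrl for the 28 tested genes, within batch 2 (triangles), within batch 1 (circles) and in the edgeR fit with the batch as a block (squares, bars are the SE, n = 2 libraries per siRNA). The 3 transporters lie above 0 in both batches, while several genes, among them ALDOC, TPI1, PDK3, HIF1A and BNIP3, take opposite sides of 0 in batch 2 and batch 1.

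Beyond the 34 genes, 3 further lists were drawn up of 32 glycolysis, 13 oxygen-sensing and 38 hypoxia-target genes. In the fit without a batch term 0 were called in each list. With the replicate block 0 of 19 tested glycolysis genes, 0 of 12 oxygen-sensing genes and 2 of 30 hypoxia targets (6.67%) were called, against 1.62% of all genes. The 2 genes were ANGPTL4 and CITED2. ANGPTL4, a secreted inhibitor of lipoprotein lipase, had 94.0 and 35.3 CPM in siCDH3AS1 libraries 1 and 2, against 36.4 and 10.1 CPM in siCtrl libraries 1 and 2. With the block it rose by 1.59 (log2, SE 0.32; edgeR adjusted p = 0.000222, and 1.00 without the block). Its groups overlapped, with the batch 2 library the lower of each siRNA. The log2 difference was 1.39 within batch 1 and 1.80 within batch 2. The difference of 1.55 without the block became 0.69 without siCDH3AS1 library 1, 0.90 without siCtrl library 2 and 2.70 without siCtrl library 1. Those fits had no batch term, so the left-out library and the batch cannot be told apart. CITED2, which competes with HIF-1α for the coactivator CBP/p300, had 180 and 171 CPM in siCDH3AS1 libraries, against 101 and 69.8 CPM in siCtrl libraries. Its groups did not overlap, and with the block it rose by 1.10 (log2, SE 0.26; edgeR adjusted p = 0.00422, and 1.00 without the block). In the same fit 5 of 12 melanocyte markers were called, all lower in siCDH3AS1 (41.7%, against 0.697% of all genes), namely TYR, MLANA, KIT, EDNRB and RAB38; their part in these differences was not tested.

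The larger differences within the list lay between the batches. In edgeR's fit with siRNA and batch as terms, 7 of 28 genes differed between batch 2 and batch 1 (25.0%), against 1657 of 10469 (15.8%). Of these 5 were higher in batch 2 (17.9%, against 9.52% of all genes) and 2 lower (7.14%, against 6.3%). Of the melanocyte markers, 6 of 12 were called between the batches (50.0%), with TYRP1, PMEL, MITF and KIT higher in batch 2 and SOX10 and EDNRB lower; their part in the differences below was not tested. The batch labels do not say what else differed between the batches. The median log2 difference over the 28 genes was 0.02, and over all genes 0.01.

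The 5 higher genes included HIF1A and the hypoxia targets NDRG1 and P4HA1. NDRG1, a cytosolic protein strongly induced by low oxygen, had 176 and 147 CPM in batch 2 (siCDH3AS1 and siCtrl), against 78.3 and 56.5 CPM in batch 1. Both batch 2 libraries were above both batch 1 libraries, and the log2 difference was 1.29 (SE 0.27, edgeR adjusted p = 5.89e-05). HIF1A had 612 and 677 CPM in batch 2, against 440 and 244 CPM in batch 1. The batches did not overlap, and the difference was 0.99 (SE 0.23, edgeR adjusted p = 0.000488), at 0.51 within siCDH3AS1 and 1.49 within siCtrl. P4HA1, the catalytic subunit of the collagen prolyl hydroxylase, had 228 and 219 CPM in batch 2, against 157 and 94.98 CPM in batch 1. Its difference was 0.89 (SE 0.26, edgeR adjusted p = 0.00685).

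PDK3 and ENO2 were the other genes higher in batch 2. PDK3 had 19.5 and 32.9 CPM in batch 2 (siCDH3AS1 and siCtrl), against 12.9 and 10.3 CPM in batch 1, a log2 difference of 1.09 (SE 0.39, edgeR adjusted p = 0.0361). ENO2 had 307 and 367 CPM in batch 2, against 196 and 209 CPM in batch 1, a difference of 0.76 (SE 0.24, edgeR adjusted p = 0.0175). For both genes the batches did not overlap. SLC16A3 and ALDOA were lower in batch 2. SLC16A3 had 468 and 359 CPM in batch 2, against 736 and 612 CPM in batch 1, a difference of −0.68 (SE 0.23, edgeR adjusted p = 0.0229). ALDOA had 2601 and 2684 CPM in batch 2, against 3377 and 4594 CPM in batch 1, a difference of −0.55 (SE 0.19, edgeR adjusted p = 0.0323). The highest of those ALDOA values is again that of the library with muscle reads, and within siCDH3AS1 the difference was −0.34.

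Genes of 1 pathway thus differed in both directions between the batches. Both batch 2 libraries lay above both batch 1 libraries for 7 of 28 genes (25.0%, against 27.2% of all genes), which were the 5 genes above with PDK1 and EGLN1. They lay below for 9 of 28 (32.1%, against 27.0%), namely SLC2A1, SLC16A3, HK1, HK2, GPI, ALDOA, GAPDH, ENO1 and PKM. In the further lists, 4 of 19 glycolysis genes (21.1%), 3 of 12 oxygen-sensing genes (25.0%) and 7 of 30 hypoxia targets (23.3%) were called, against 15.8% of all genes. Among hypoxia targets ANKRD37, ERO1A, HIGD1A and MET were higher in batch 2, and DDIT4, ANGPTL4 and HMOX1 were lower.

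The batch calls depended on the model. With no siRNA term 1 of the 28 genes was called, NDRG1, against 5.14% of all genes, while the log2 differences of HIF1A, PDK3 and ENO2 were 0.93, 1.15 and 0.76. DESeq2 called 3 of the 28, which were HIF1A, NDRG1 and P4HA1, against 694 of the 8236 genes it gave an adjusted p (8.43%). Fits that left out 1 library also had no siRNA term, so these changes cannot be told apart. Such fits also leave 1 library in 1 of the batches, so only log2 differences are given here. With each library left out in turn they ranged from 0.53 to 1.445 for HIF1A, from 1.02 to 1.55 for NDRG1 and from 0.49 to 1.28 for P4HA1. Without siCtrl library 1 the log2 differences of HIF1A and P4HA1 became 0.53 and 0.49, and that of NDRG1 became 1.02.

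**Figure D3:**
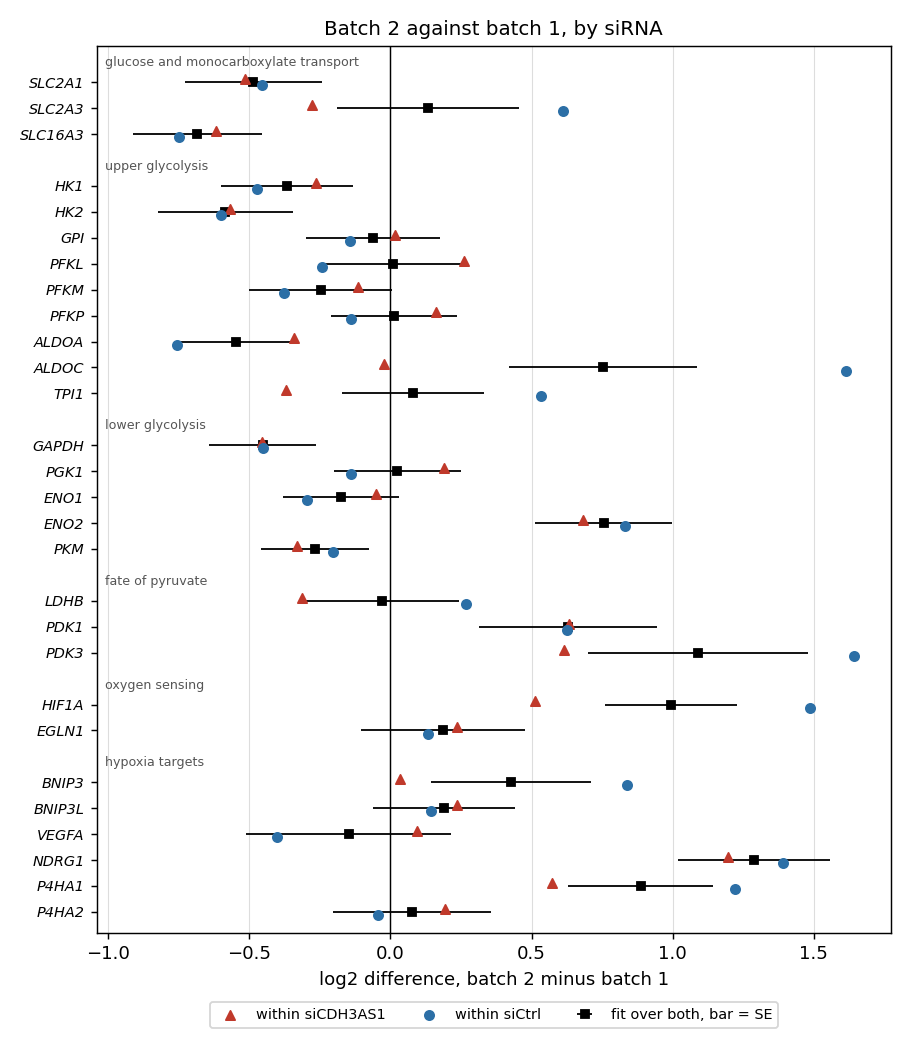
Log2 difference between batch 2 and batch 1 for the 28 tested genes, within siCDH3AS1 (triangles), within siCtrl (circles) and in the edgeR fit (squares, bars are the SE, n = 2 libraries per batch). NDRG1, HIF1A, P4HA1, PDK3 and ENO2 lie to the right of 0 and SLC16A3 and ALDOA to the left, with HIF1A at 0.51 within siCDH3AS1 and 1.49 within siCtrl.

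HIF1A also differed in the share of its leading transcript's reads that lay in the 5′ UTR. Footprints in a 5′ UTR come from ribosomes upstream of the coding sequence, and their share was taken among the 5′ UTR and coding reads of a gene's leading transcript, with exact (Clopper-Pearson) 95% intervals that cover counting error only. In batch 2 the HIF1A share was 4.20% (3.28% to 5.30%) in siCDH3AS1, from 68 5′ UTR and 1551 coding reads, and 3.83% (3.24% to 4.49%) in siCtrl, from 147 and 3692. In batch 1 it was 15.0% (13.7% to 16.2%) in siCDH3AS1, from 480 and 2729 reads, and 19.1% (15.9% to 22.7%) in siCtrl, from 102 and 432. The batches did not overlap, and the lower batch 1 value was 3.56 times the higher batch 2 value. The coding-sequence CPM was higher and the 5′ UTR share lower in batch 2. The leading transcript held 96.0% to 97.6% of HIF1A coding reads, and 5′ UTR reads on its other transcripts are not given here. Whether the assignment of reads to transcripts differed between the batches was not tested.

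Few genes had a batch difference in 5′ UTR share of that size in the same direction. Among 1352 genes with at least 50 such reads over the libraries and at least 50 reads in each library, both batch 2 shares were below both batch 1 shares in 201 (14.9%) and above them in 528 (39.1%). They were at least 3 times lower in 8 (0.592%), of which HIF1A was 1. Over all genes, the 5′ UTR took 7.09% and 5.08% of reads in batch 2 (siCDH3AS1 and siCtrl), against 3.81% and 5.98% in batch 1. HIF1A was singled out after its values were seen, and no test was made of its share.

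Of the 6 listed genes with at least 50 such reads, only HIF1A had lower shares in both batch 2 libraries than in both batch 1 libraries. SLC2A1, HK2 and ENO2 did split by batch, with higher shares in batch 2, the direction seen in 39.1% of the genes counted above. EGLN1 carried a high share throughout, at 33.3% and 33.7% in siCDH3AS1 libraries 1 and 2, against 23.6% and 29.2% in siCtrl libraries 1 and 2, and all 4 intervals overlapped. VEGFA had 13.1% and 13.6% in siCDH3AS1 libraries, against 6.0% and 12.9% in siCtrl libraries, on 48 5′ UTR reads in all. SLC2A1 had 11.1% and 7.97% in batch 2 (siCDH3AS1 and siCtrl), against 5.87% and 7.10% in batch 1. HK2 had 11.7% and 6.94% in batch 2, against 4.81% and 5.67% in batch 1. ENO2 had 5.70% and 4.89% in batch 2, against 2.64% and 4.57% in batch 1. In these 3 genes the top value was that of siCDH3AS1 library 2, whose 5′ UTR share over all genes was also the highest. The intervals of batch 2 and batch 1 overlapped within siCtrl in each of these 3 genes, and did not overlap within siCDH3AS1. GAPDH lay between 0.519% and 2.19%, with the batches overlapping.

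The leading transcripts of 16 of the 28 genes had no 5′ UTR read in any library, and in some of these genes such reads were counted on other transcripts. For LDHB the transcript that held all coding reads had 0 5′ UTR reads, while another listed transcript had 192 and 246 in siCDH3AS1 libraries 1 and 2 and 49 and 434 in siCtrl libraries 1 and 2, with 0 coding reads. For ENO1 a transcript with no coding reads likewise held 891 and 288 5′ UTR reads in siCDH3AS1 libraries and 460 and 472 in siCtrl libraries. A share of 0 for these 2 genes is no measure of upstream ribosomes.

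**Figure D4:**
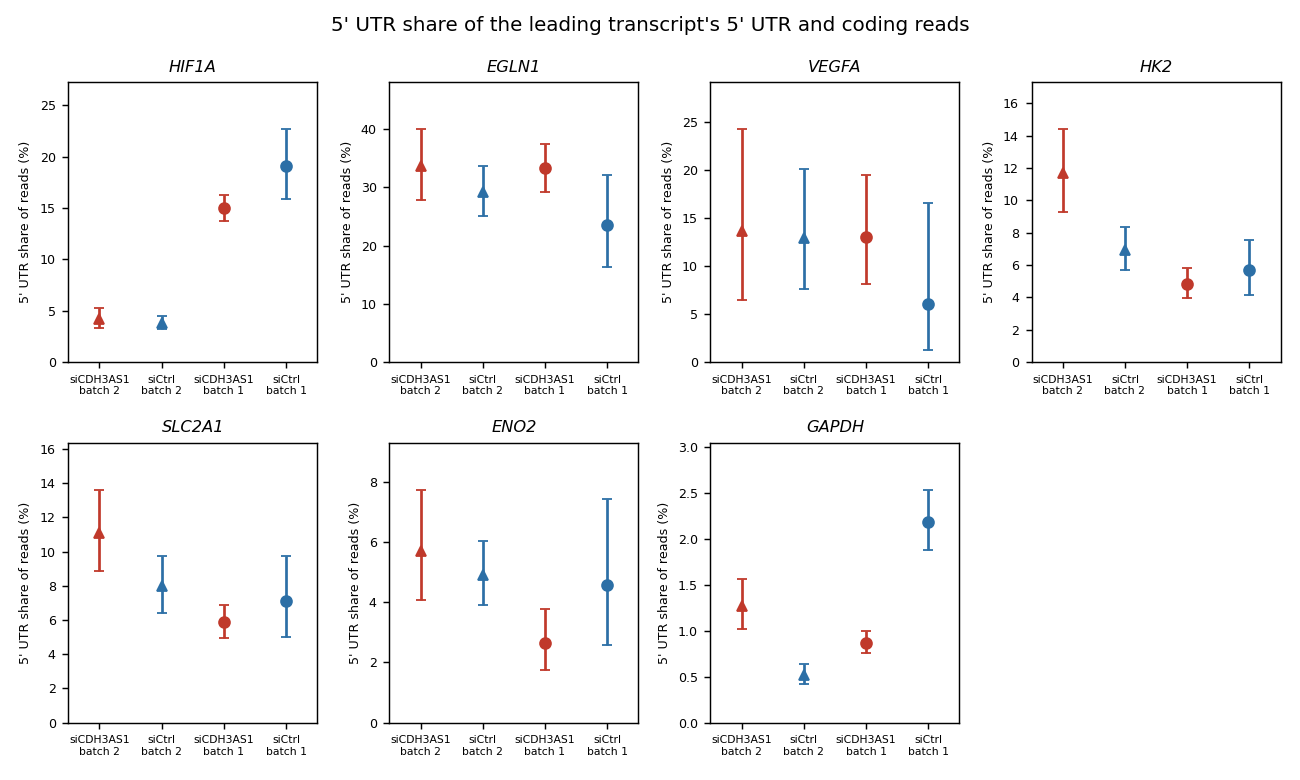
Share of 5′ UTR reads (%) among the 5′ UTR and coding reads of the leading transcript for 7 genes in the 4 libraries (siCDH3AS1 red, siCtrl blue; triangles batch 2, circles batch 1; bars are exact 95% intervals). HIF1A lies near 4% in both batch 2 libraries, at 4.20% and 3.83%, and at 15.0% and 19.1% in batch 1, while EGLN1 stays between 23.6% and 33.7%; the vertical scale differs between panels.

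For 18 of the 28 genes, 1 transcript held at least 90% of coding reads in every library. For 7 genes its share moved by over 10 percentage points. BNIP3L, at chr8:26383054-26413127 on GRCh38.p14, had 67.1% and 69.9% of its reads on the leading transcript in batch 2 (siCDH3AS1 and siCtrl), against 94.5% and 94.7% in batch 1. The rest lay on a transcript with a coding sequence of 183 bases. The shift was between batches and was alike in both siRNAs. PGK1, at chrX:78104248-78129295, had 73.3% and 67.5% in batch 2, against 89.9% and 84.3% in batch 1, with the rest on a second transcript of 1254 coding bases. NDRG1 had 82.8% and 76.6% in batch 2, against 88.1% and 90.4% in batch 1.

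The other genes with moving shares were BNIP3, PKM, ALDOA and PDK1. BNIP3 had 93.3% and 93.2% in batch 2 (siCDH3AS1 and siCtrl), against 86.5% and 58.5% in batch 1. Its lowest value was that of the siCtrl library with muscle reads, where the second transcript held 41.5% of 106 reads. ALDOA had 31.6% and 29.6% in batch 2, against 41.9% and 44.1% in batch 1, so the leading transcript of this gene never held 50% of its reads. For PKM the share lay between 67.5% and 82.1%. Reads that fit several transcripts of a gene can be split between them in more than 1 way, and whether that moved these shares was not tested; sums over a gene's transcripts do not depend on the split.

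**Figure D5:**
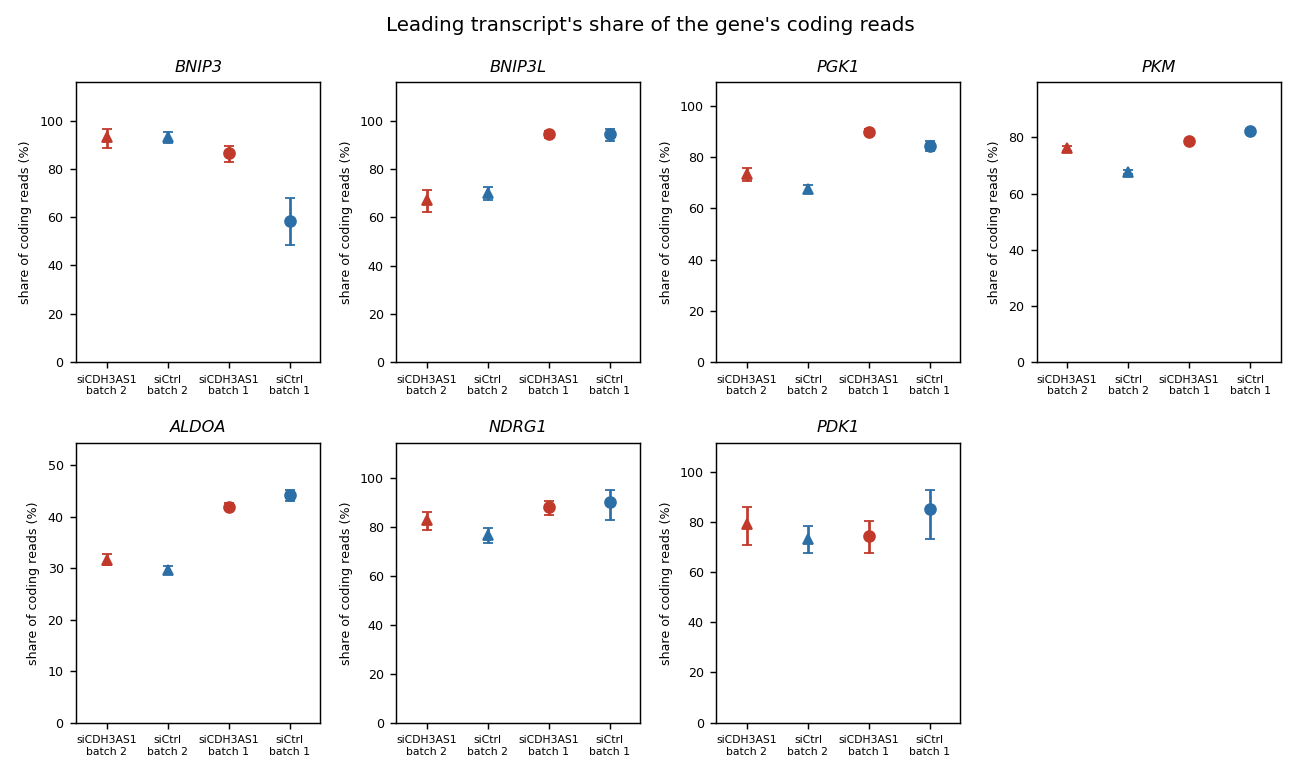
Share (%) of a gene's coding-sequence reads on its leading transcript for the 7 genes whose share moved by over 10 points (siCDH3AS1 red, siCtrl blue; triangles batch 2, circles batch 1; bars are exact 95% intervals). BNIP3L lies at 67.1% and 69.9% in batch 2 and at 94.5% and 94.7% in batch 1, and BNIP3 is lowest, at 58.5%, in siCtrl of batch 1; the vertical scale differs between panels.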

How the data were processed

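Ribosome footprints were measured in 4 libraries of Hermes 4B cells. Per the file headers, the deposited tables hold 1 row per transcript, with read counts for the coding sequence and both UTRs and, made by the authors, RPKM values for the same regions. The RPKM were scaled by each library's total over all regions, checked on the values. The submitters' processing notes name hg38 and DESeq2. No aligner, counter, annotation or strand setting is given in these sources, so overlapping genes, antisense genes and near-identical copies are uncertain. No RNA-seq was analysed here, so values are ribosome density.

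Coding-sequence counts were summed by gene name over 38455 transcripts. Genes passing edgeR's filterByExpr (minimum count 10, minimum total 15), 10469 in number, were fitted with edgeR 4.0.16 in R 4.3.3 (TMM scaling, prior count 2, quasi-likelihood test) and Benjamini-Hochberg adjusted over all genes at 0.05. The main siRNA fit had no covariate, and the batch fit had siRNA as a second term. The labels give same-numbered libraries a shared batch, and over genes their deviations from the group means had a correlation of 0.58. A second siRNA fit therefore took the libraries as paired, with the batch as a block, while the main siRNA fit ignores this pairing. The spread between libraries that edgeR estimates (coefficient of variation) was 35.9% without the block and 20.2% with it. Block counts are given beside the main ones, and block values for single genes where stated. Replicates differed beyond sampling noise (chi-square per degree of freedom 36.4 for siCDH3AS1 and 44.0 for siCtrl). Within-batch differences are between TMM-scaled log2 CPM with the prior count. Because summing transcript RPKM inflates genes with short transcripts (5071 against 2286 for PKM in siCDH3AS1 library 1), levels between genes were set per kilobase of the leading transcript. Fits were tested on simulated data. Alternatives were DESeq2 1.42.0, limma 3.58.1 on log2(RPKM + 1), RLE size factors, no count filter, at least 50 reads, all regions, the highest transcript and each library left out. Genes named with values in every library were those past a threshold in any fit, those differing by at least 0.5 (log2) in both batches, the 3 with the highest RPKM and the largest difference in each role; SLC2A1, P4HA2 and the genes of the transcript and 5′ UTR accounts were added after their values were seen. The members and lists were chosen with earlier results of these data known.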

Additional observations from a re-analysis of the deposited data

How the results depend on the processing

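The count of members called for the siRNA was 0 in every alternative run, the replicate block included. Over all genes the main count was 0. It was 170 with the replicate block (97 higher, 73 lower), 2 with DESeq2, 57 with DESeq2 and the block, 52 with no filter on low counts, and 0 to 73 with each library left out, 73 being without siCtrl library 2. The block also brought the calls of ANGPTL4 and CITED2, with DESeq2 as well, and changed no call of a member. For the batches, the count over all genes was 1657, then 538 with no siRNA term, 694 with DESeq2 and 29 (siCtrl library 2), 120 (siCDH3AS1 library 2), 287 (siCtrl library 1) and 1280 (siCDH3AS1 library 1) with each library left out. The members called were 7, then 1 with no siRNA term, 3 with DESeq2 and 0 to 3 with each library left out. With 3 libraries the planned batch fit with both terms could not be fitted, having no residual degrees of freedom, so those fits had no siRNA term, a change made after seeing the data. The siRNA direction of PKM turned with limma (−0.015). With each library left out it ranged for PKM between −0.086 and 0.25, for ENO2 between −0.53 and 0.33, for GAPDH between −0.37 and 0.15, for HIF1A between −0.30 and 1.17, for NDRG1 between −0.36 and 1.22, for ALDOA between −0.56 and 0.22, for P4HA1 between −0.12 and 1.08 and for PDK3 between −0.96 and 0.67. Of the 16 genes run one by one, no other turned. The median over members turned to 0.080 without siCtrl library 1 and 0.099 without siCtrl library 2. The siRNA fits with a library left out had no batch term and left 1 siRNA with a single batch. Library and batch thus cannot be told apart in them. Of the genes that turned, PKM, NDRG1 and P4HA1 lay above 0 within both batches, and ENO2 and GAPDH below 0. ALDOA, HIF1A and PDK3 took opposite sides of 0 in the batches. The causes were not tested. Depth limits the low genes, since PDK3 and VEGFA had few reads in the shallow libraries.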
